A study of Mus musculus with 12 samples.

Results

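The 10 markers of astrocyte identity and of the reactive state described here were measured in primary cortical astrocytes of SAMP8 mice, a strain with accelerated senescence, and of SAMR1 mice, its senescence-resistant control. The markers were Gfap, Vim, S100b, Aldh1l1, Aqp4, Gja1, Aldoc, Lcn2, Serpina3n and Cd44, and every probe that the array annotation assigned to these symbols was taken. Probes were found for 9 of the 10 genes, 14 probes of the 24613 on the array, and Aldh1l1, a folate enzyme used as a pan-astrocyte marker, was not analysed here. The 4 groups were SAMP8-CR, SAMP8-AL, SAMR1-CR and SAMR1-AL, with 3 samples each, which the methods describe as independent experiments. Cultures were prepared from pups of postnatal day 2 and used at day 21 in vitro, and all of them received 10% heat-inactivated rat serum for 48 h. In the CR groups the serum came from calorically restricted rats and in the AL groups from rats fed ad libitum, and no group was kept without rat serum. The methods describe the cultures as mainly astrocytes with a minority of microglia and few oligodendroglia, so each array read a mixture. In such a mixture, fewer cells of a type and less RNA per cell cannot be told apart.

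Gfap and Vim build the intermediate filaments of astrocytes, Gja1 (connexin 43) couples the cells through gap junctions, and Aqp4 is the water channel of the perivascular endfeet. When astrocytes react to injury or inflammation they thicken their filaments and secrete acute-phase proteins such as Lcn2 and Serpina3n, partly under the control of STAT3 and NF-kB. Aldoc, a glycolytic aldolase, and S100b, a calcium-binding protein, are read as identity markers, and Cd44, the hyaluronan receptor, marks reactive and fibrous astrocytes.

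The values are bead intensities, which are linear and without background correction, and each comes with a detection p-value against the negative control beads. For the tests, log2 intensities were turned into Z values within each array and brought back to log2 units with the average array SD, and this normalized log2 value was compared with limma over all 12 samples. Probes with a detection p under 0.05 in all 3 arrays of some group were tested, 10935 in number, among them 9 marker probes of 8 genes. A call is a Benjamini-Hochberg adjusted p under 0.05 over all tested probes, and all adjusted p below are from limma. An array detected 41.2% to 46.7% of its probes, and the 90th percentile of the intensities was 4.68 to 9.0 times the lowest detected intensity. The brightest arrays by that percentile were SAMR1-CR replicate 1 (1033), SAMR1-AL replicate 1 (1023) and SAMP8-CR replicate 1 (1013), against 500.6 to 785.8 in the other 9. The lowest intensity was 40.1 to 42.9 in replicates 2 and 3 of SAMP8-CR and of SAMP8-AL and 7.01 to 8.19 in the other 8 arrays, a division that no label names. These 4 and 8 arrays are called the second and the first array set, and since the second holds only SAMP8, the array set goes in part with the strain.

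The labelled cell type could be read from the arrays in part. Gfap, Vim, Gja1, Aqp4, Aldoc, Lcn2 and Serpina3n were detected in all 12 arrays, as were the glutamate transporter Slc1a3, the glutamine synthetase gene Glul and the astrocyte transcription factor Sox9. Of 26 astrocyte identity genes other than the markers, which include Slc1a3, Glul and Sox9, 20 were detected in all 12 arrays. Slc1a2, the glutamate transporter of mature astrocytes, was detected in none. S100b was not well above background, with a detection p under 0.05 in 2 of the 12 arrays.

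**Figure D1:**
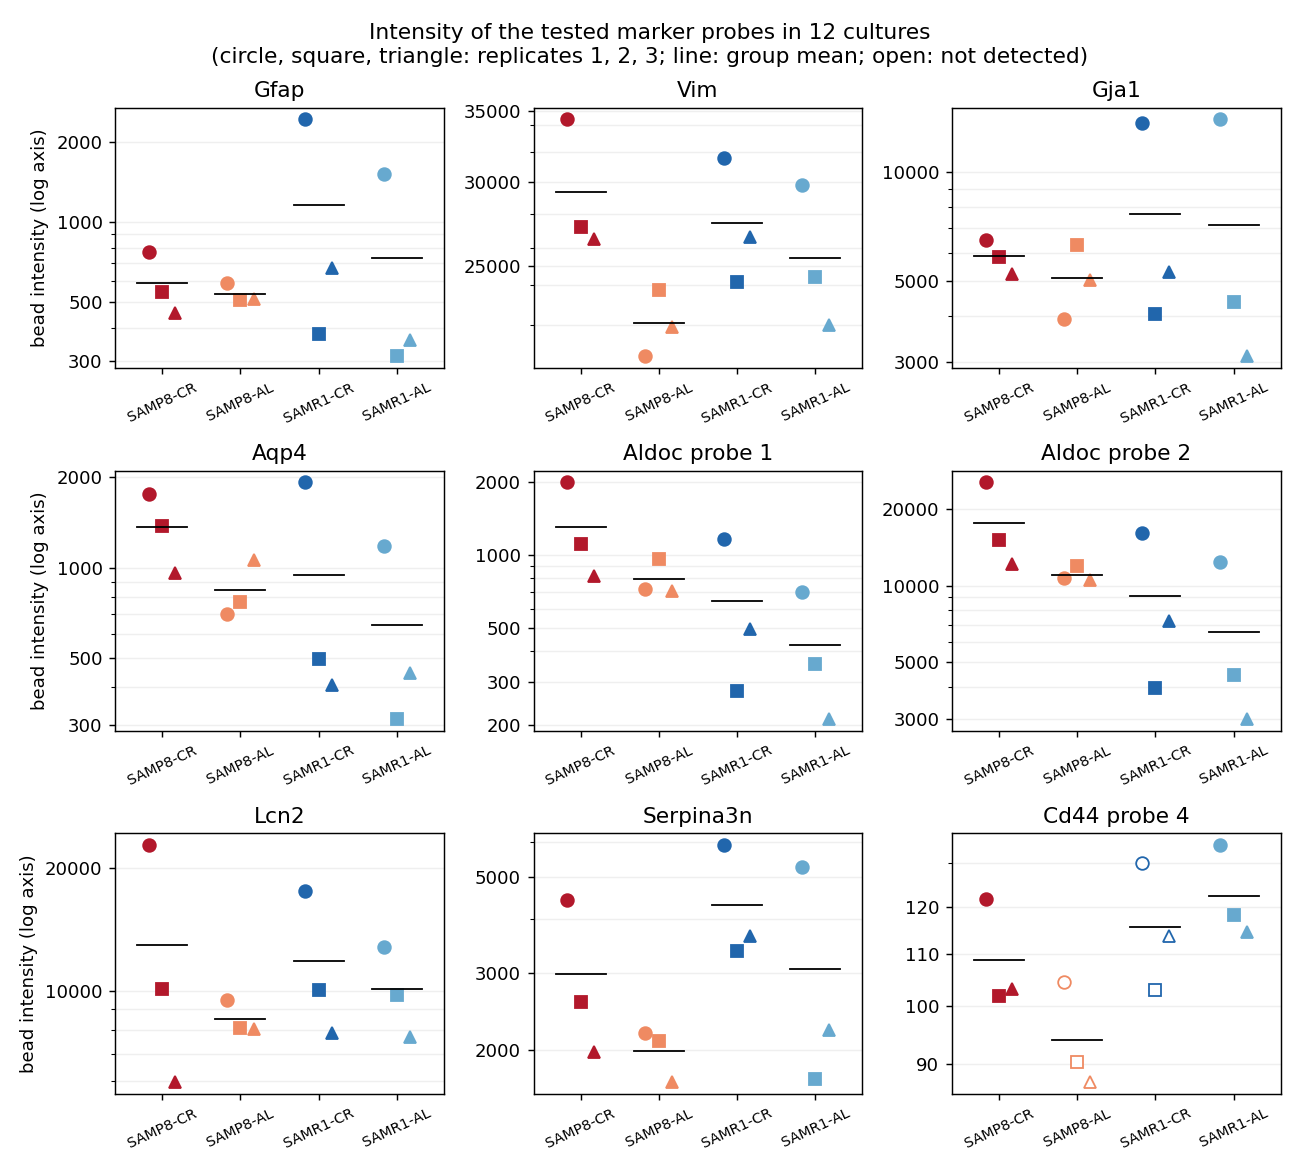
Bead intensity (log axis) of the 9 tested marker probes in SAMP8-CR, SAMP8-AL, SAMR1-CR and SAMR1-AL cultures, with 1 point per array (circle, square and triangle for replicates 1, 2 and 3), a line at the group mean and open symbols where the probe was not detected. Replicate 1 of SAMR1-CR and of SAMR1-AL was the highest of its group for every probe, while Aldoc probe 1 lay at 713 or more in all SAMP8 arrays.

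Gfap, the marker after which reactive gliosis is usually scored, overlapped between the strains. Its intensity was 768.4, 543.6 and 455.5 in SAMP8-CR and 589.9, 506.9 and 515.4 in SAMP8-AL, against 2430, 378.6 and 669.3 in SAMR1-CR and 1520, 313.6 and 361.2 in SAMR1-AL. The SAMR1 groups thus held both the highest and the lowest arrays, replicate 1 being the highest with either serum, and the 6 SAMP8 arrays lay between these extremes. On the normalized log2 scale Gfap averaged 1.76 ± 0.09 in SAMP8-CR, 1.96 ± 0.26 in SAMP8-AL, 2.34 ± 0.98 in SAMR1-CR and 1.82 ± 0.83 in SAMR1-AL (SD, n = 3 each). The strain difference over both sera was -0.22 (SE 0.30, adjusted p = 0.656), with a 95% interval from -0.85 to 0.41. Without single arrays that difference ranged from -0.47 to 0.02.

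Vim, the filament partner of Gfap, was near the top of the intensity range. It read 34380, 27220 and 26510 in SAMP8-CR and 20590, 23750 and 21930 in SAMP8-AL, against 31600, 24180 and 26620 in SAMR1-CR and 29840, 24450 and 22020 in SAMR1-AL, a 1.67-fold range over the 12 arrays. The SAMP8-AL arrays were the 3 lowest but for SAMR1-AL replicate 3, and the strains overlapped with either serum. The normalized strain difference was -0.40 (SE 0.36, adjusted p = 0.483). For such a bright probe the division by the array SD, which was 1.23 to 1.61 in log2 units, moves the value strongly, and with quantile normalization or median centring the difference was 0.05 or 0.16.

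Of Gja1 and Aqp4, markers of the coupled and polarised astrocyte, only Aqp4 passed the test between strains. Gja1 read 6490, 5824 and 5253 in SAMP8-CR and 3934, 6320 and 5053 in SAMP8-AL, against 13680, 4055 and 5321 in SAMR1-CR and 14020, 4380 and 3109 in SAMR1-AL. Replicate 1 of either SAMR1 group read higher than every SAMP8 array, and the other SAMR1 arrays were not. The strain difference of Gja1 was -0.35 (SE 0.18, adjusted p = 0.195), and 0.02 with median centring.
Aqp4 had intensities of 1757, 1374 and 959.3 in SAMP8-CR and 700.7, 766.6 and 1060 in SAMP8-AL, against 1927, 495.2 and 406.5 in SAMR1-CR and 1180, 313.5 and 446.9 in SAMR1-AL. Replicates 2 and 3 of both SAMR1 groups were below every SAMP8 array, and replicate 1 of the SAMR1 groups lay among or above the SAMP8 values. Its normalized value averaged 2.88 ± 0.08 in SAMP8-CR, 2.58 ± 0.36 in SAMP8-AL, 2.11 ± 0.78 in SAMR1-CR and 1.82 ± 0.64 in SAMR1-AL (SD, n = 3 each). Over both sera Aqp4 was higher in SAMP8 by 0.77 (SE 0.25, adjusted p = 0.0482). The call was lost without 10 of the 12 arrays in turn (adjusted p up to 0.117) and in 6 of 10 alternative settings. These were quantile normalization with and without normexp background (adjusted p = 0.0547 and 0.0553), median centring (0.066), no filter on dim probes (0.0703), a block for the array set (0.246) and the first array set alone (0.4).

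Aldoc, the brain isozyme of fructose-bisphosphate aldolase, was read by 2 probes, and both had larger strain differences over both sera than the other 7 tested marker probes. Probe 1 (ILMN_2613344) had intensities of 1989, 1111 and 817.6 in SAMP8-CR and 723.5, 959.1 and 713 in SAMP8-AL, against 1161, 274.9 and 495.1 in SAMR1-CR and 705.8, 354.1 and 211 in SAMR1-AL. Only SAMR1-CR replicate 1 reached the range of the SAMP8 arrays, and on the normalized scale no SAMR1 array did, as held in either direction for 7.09% of all tested probes. The normalized values were 2.56 to 3.07 in SAMP8-CR and 2.41 to 2.57 in SAMP8-AL, against 0.86 to 2.33 in SAMR1-CR and 0.68 to 1.73 in SAMR1-AL. Over both sera the difference was 1.17 (SE 0.22, adjusted p = 0.00325), which is 2.24-fold.
Probe 2 (ILMN_3160137) read 25510, 15140 and 12130 in SAMP8-CR and 10740, 11950 and 10510 in SAMP8-AL, against 16200, 3968 and 7297 in SAMR1-CR and 12370, 4458 and 3000 in SAMR1-AL. As for probe 1, replicate 1 was the highest SAMR1 array with either serum. Its difference over both sera was 0.86 (SE 0.23, adjusted p = 0.0221), which is 1.81-fold. The deviations of the 2 probes from their means over the 12 arrays differed by 0.37 in log2 units (root mean square), so they gave the same direction with different sizes.
The call of probe 1 over both sera was kept without each of the 12 arrays in turn and was lost in the first array set alone, where the difference was 1.32 with 2 SAMP8 and 6 SAMR1 arrays (adjusted p = 0.0713). Probe 2 lost its call without SAMR1-CR replicate 2, SAMP8-CR replicate 3 or SAMR1-AL replicate 3 (adjusted p 0.0522 to 0.054) and with a block for the array set (1.11, adjusted p = 0.0539). Its call was lost as well in the first array set alone, with a difference of 1.09.

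The bases before the start of Aldoc and Serpina3n, the marker genes other than Aqp4 that were called, are given for orientation from RefSeq (GRCm38.p6), with motif matches in capitals. Aldoc spans 78323073 to 78327781 on chromosome 11, on the plus strand. Its first window, chr11:78322823-78323072, directly precedes the annotated gene and held no match to the 5 motifs searched. A further RefSeq start lies inside the gene, and the 250 bases before it held 2 STAT motifs, TTCNNNGAA, of which 30 bases each are shown (chr11:78324064-78324093 and chr11:78324105-78324134). Serpina3n spans 104406646 to 104414334 on chromosome 12, plus strand, and the 188 bases shown before it (chr12:104406458-104406645) held an NF-kB motif, GGG-NN-TTTCC.
Aldoc before the gene: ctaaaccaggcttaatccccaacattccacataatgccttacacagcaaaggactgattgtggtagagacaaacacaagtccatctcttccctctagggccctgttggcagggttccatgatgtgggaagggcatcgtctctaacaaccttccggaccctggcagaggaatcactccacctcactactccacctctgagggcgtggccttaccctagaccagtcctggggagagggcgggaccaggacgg
Aldoc inner start, distal STAT match: aggggccagaTTCAGTGAAagaagagctgg
Aldoc inner start, proximal STAT match: tggcagcagtTTCCAGGAAgacctgtggct
Serpina3n before the gene: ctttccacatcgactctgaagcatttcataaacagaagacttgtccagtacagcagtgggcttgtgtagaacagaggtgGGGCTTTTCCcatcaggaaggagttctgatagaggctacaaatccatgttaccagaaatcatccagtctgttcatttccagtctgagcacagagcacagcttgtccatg
Both strands were searched in the 250 bases before 9 starts of 8 marker genes, and in the same span of all 32851 RefSeq starts of the table. The STAT motif was found in 1 of the 9 and in 7.02% of all starts, the NF-kB motif in 2 of the 9 (Serpina3n and Vim) and in 1.41%, and a C/EBP motif, TTGCNNAA, in 1 (Lcn2) and in 9.56%. An AP-1 motif, TGANTCA, was found in 1 (Gja1) and in 6.75%, and TATAAA in 1 (Vim) and in 12.4%. No match overlapped another, and a match describes the letters alone.

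Lcn2 and Serpina3n, the secreted proteins of the reactive astrocyte, were bright in every array. Lcn2, a siderophore-binding lipocalin, read 22780, 10080 and 5967 in SAMP8-CR and 9469, 8096 and 8038 in SAMP8-AL, against 17590, 10020 and 7880 in SAMR1-CR and 12800, 9741 and 7693 in SAMR1-AL. The highest and the lowest of the 12 values were both SAMP8-CR, and the strains overlapped. The strain difference over both sera was -0.36 (SE 0.25, adjusted p = 0.361), and with median centring or within the first array set it was 0.10 or 0.19.
Serpina3n, a serine protease inhibitor, read 4419, 2575 and 1975 in SAMP8-CR and 2194, 2093 and 1691 in SAMP8-AL, against 5905, 3376 and 3647 in SAMR1-CR and 5256, 1720 and 2228 in SAMR1-AL. With CR serum 2 of the 3 SAMP8-CR arrays were below all SAMR1-CR arrays, and with AL serum the groups overlapped. Its normalized value averaged 3.90 ± 0.16 in SAMP8-CR and 4.74 ± 0.32 in SAMR1-CR, and 3.87 ± 0.40 in SAMP8-AL and 4.27 ± 0.38 in SAMR1-AL (SD, n = 3 each). Over both sera Serpina3n was lower in SAMP8, with a difference of -0.63 (SE 0.17, adjusted p = 0.0243). The call was lost without SAMP8-CR replicate 2 or 3, SAMP8-AL replicate 2 or 3 or SAMR1-AL replicate 3 (adjusted p 0.0554 to 0.0675). It was lost as well with median centring (-0.30), with a block for the array set (-0.30) and in the first array set alone (-0.29, adjusted p = 0.475 to 0.679).

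Cd44 and S100b were at the edge of detection. Of the 5 Cd44 probes 4 were detected in no array, with intensities of 60.99 to 103.3, and probe 4 (ILMN_2730266) was detected in 6 of the 12. Probe 4 read 121.8, 101.8 and 103.2 in SAMP8-CR and 104.6, 90.3 and 87.02 in SAMP8-AL, against 130, 103.1 and 113.8 in SAMR1-CR and 134.4, 118.2 and 114.6 in SAMR1-AL. It was detected in all 3 arrays of SAMP8-CR and of SAMR1-AL and in none of SAMP8-AL and SAMR1-CR. Only a bound is known where a probe is detected in no array, taken against the lowest detected signal of the arrays. The bound was 1.1-fold lower in SAMP8-AL than in SAMR1-AL and 1.02-fold higher in SAMP8-CR than in SAMR1-CR. These bounds compare group means without the spread between arrays, and neither difference passed the test (adjusted p = 0.088 and 0.628). The probe passed the detection filter only through SAMP8-CR and SAMR1-AL, so both directions are in part set by that filter. With CR serum the fitted difference was 0.079 (SE 0.067), while mean intensity was lower in SAMP8-CR (109) than in SAMR1-CR (115.6). No direction is therefore given with CR serum. With AL serum mean intensity was lower in SAMP8-AL too (93.98 against 122.4).
S100b read 112.6, 93.32 and 78.74 in SAMP8-CR and 98.98, 73.91 and 75.38 in SAMP8-AL, against 136.5, 101.7 and 90.08 in SAMR1-CR and 117.2, 103.9 and 85.39 in SAMR1-AL. It passed detection in SAMP8-CR replicate 1 (detection p-value 0.0499) and SAMR1-CR replicate 1 (0.0462) alone, and was not tested for differences.

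**Figure D2:**
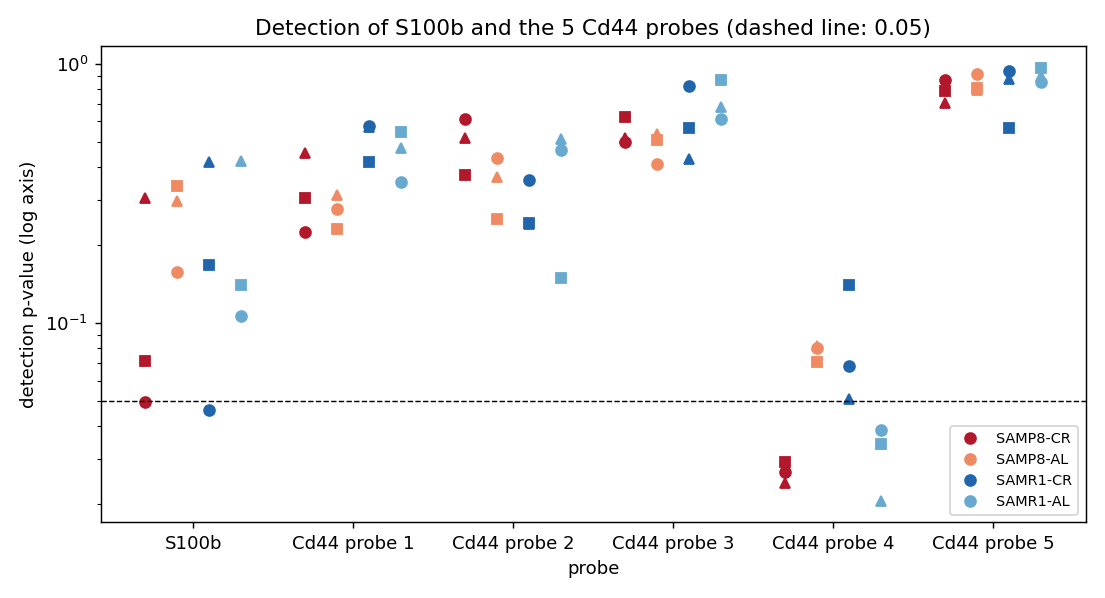
Detection p-value (log axis) of the S100b probe and the 5 Cd44 probes in each of the 12 arrays, coloured by group, with circle, square and triangle for replicates 1, 2 and 3 and a dashed line at 0.05. Of the Cd44 probes only probe 4 fell below the line, in the 3 SAMP8-CR and the 3 SAMR1-AL arrays, and S100b did so in 2 arrays.

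Set side by side, the strain comparisons called 4 of the 9 marker probes over both sera, 1 with AL serum and 0 with CR serum. Of all tested probes 15.6% were called over both sera, 9.67% in P8AL-R1AL and 2.8% in P8CR-R1CR, so that the count with a single serum was near that of the array as a whole. In P8AL-R1AL (SAMP8-AL over SAMR1-AL) Aldoc probe 1 was higher by 1.26 (SE 0.32, adjusted p = 0.0241), and Aldoc probe 2 had a difference of 1.06 (SE 0.33, adjusted p = 0.0557). The call of probe 1 in P8AL-R1AL was lost without any SAMP8-AL replicate and without SAMR1-AL replicate 2 or 3 (adjusted p 0.0618 to 0.0784), and with median centring or the first array set alone (adjusted p = 0.0988 and 0.335).
In P8CR-R1CR (SAMP8-CR over SAMR1-CR) Aldoc probe 1 had a difference of 1.07 (SE 0.32, adjusted p = 0.0949) and Serpina3n of -0.85 (SE 0.24, adjusted p = 0.0869), and the groups did not overlap for either on the normalized scale, while their intensities did. In P8AL-R1AL all SAMP8-AL arrays lay above all SAMR1-AL arrays for both Aldoc probes on the normalized scale, while probe 2 overlapped in intensity, and they lay below for Cd44 probe 4, which no SAMP8-AL array detected. On that scale 31.3% of all tested probes did not overlap in P8AL-R1AL and 20% in P8CR-R1CR. By a Z ratio of at least 1.5 in size, the size cutoff of the methods applied here with no p, 8 of the 9 probes passed in P8CR-R1CR and 4 in P8AL-R1AL, where 18.7% and 21.3% of all tested probes did.
Same-numbered SAMP8-CR and SAMR1-CR samples deviated together (r = 0.19 to 0.37), and with the replicate number as a block Aldoc probe 1 (adjusted p = 0.0316) and Serpina3n (adjusted p = 0.0485) were called there. Without SAMR1-CR replicate 1, Aldoc probe 1 (1.38, adjusted p = 0.0287) and Aqp4 (1.21, adjusted p = 0.0392) were.

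**Figure D3:**
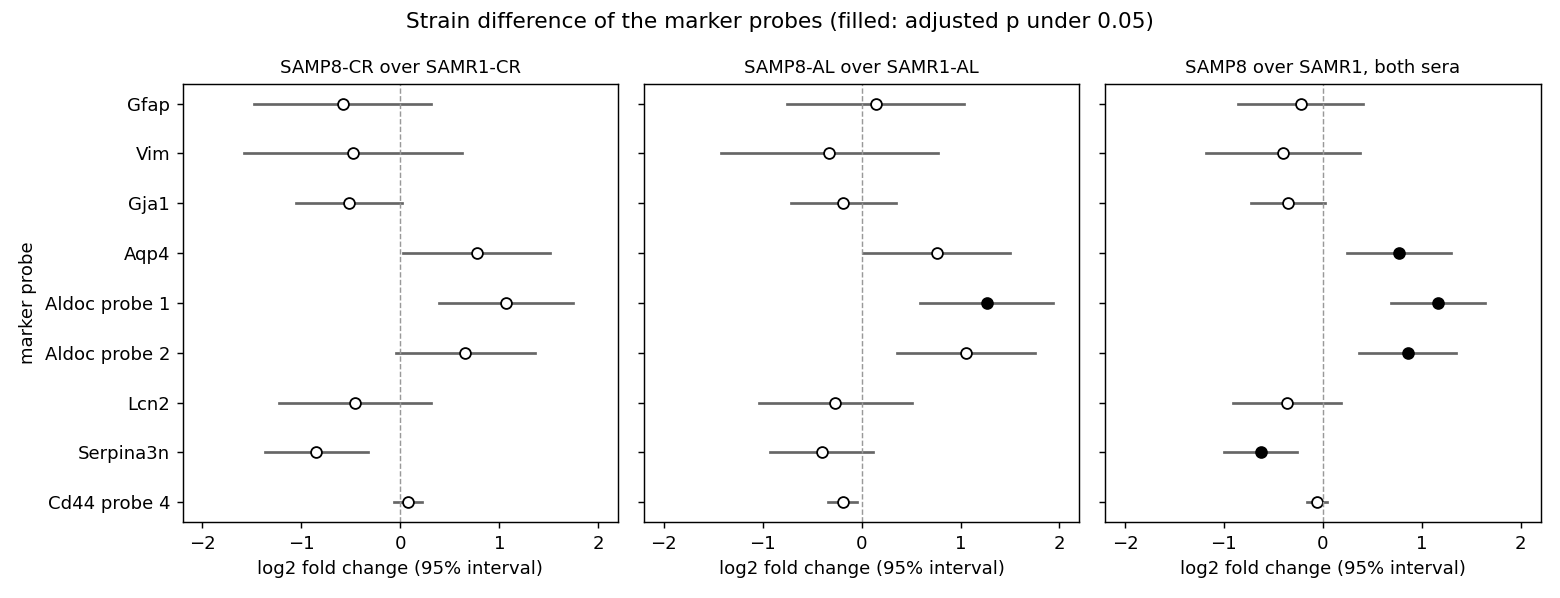
Log2 fold change with its 95% interval of the 9 marker probes for SAMP8-CR over SAMR1-CR, SAMP8-AL over SAMR1-AL and SAMP8 over SAMR1 over both sera (limma, 12 samples), filled where the adjusted p was under 0.05. Over both sera the Aldoc probes (1.17 and 0.86) and Aqp4 (0.77) lay above 0 and Serpina3n (-0.63) below, and the other intervals included 0.

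How far each strain difference rests on scaling and array set differed from marker to marker. Aldoc probe 1 stayed between 1.11 and 1.34 over both sera in 10 alternative settings, Aldoc probe 2 between 0.78 and 1.27 and Aqp4 between 0.73 and 0.94. The deposited Z scores, the replicate block and the changed filters on dim probes leave the log2 difference unchanged, so they do not test its size. The array set block and the first array set alone gave nearly the same values, as the second set holds only SAMP8. These were 1.11 and 1.09 for Aldoc probe 2 and 0.74 and 0.73 for Aqp4. Median centring, which does not divide by the array SD, moved the median of all probes to 0.16 from 0.04, so that Aldoc probe 1 (1.34) was then 1.18 above that median. Vim, Gja1 and Lcn2 changed sign in at least 1 setting, and no direction is given for them.

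**Figure D4:**
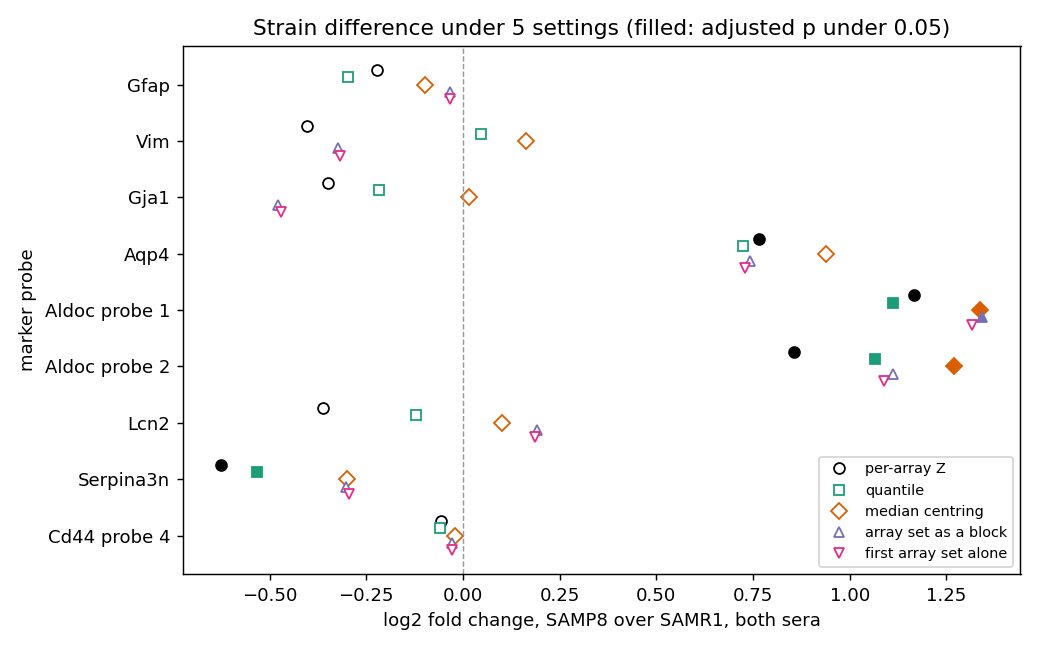
Log2 fold change of SAMP8 over SAMR1 over both sera for the 9 marker probes under 5 settings (per-array Z with all 12 samples, quantile normalization, median centring, the array set as a block, and the first array set alone), filled where the adjusted p was under 0.05. The 2 Aldoc probes and Aqp4 lay above 0.7 in every setting shown, Serpina3n lay below 0, and Vim, Gja1 and Lcn2 lay on both sides of 0.

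Serum of calorically restricted rats changed no marker probe past the threshold in either strain. None of the 10935 probes was called in P8CR-P8AL (SAMP8-CR over SAMP8-AL) or in R1CR-R1AL (SAMR1-CR over SAMR1-AL), while 583 (5.33%) and 373 (3.41%) had an unadjusted p under 0.05. In P8CR-P8AL the marker differences ran from -0.32 for Vim to 0.30 for Aqp4 (adjusted p 0.818 to 0.986). The sign of Vim changed with the scaling, to 0.34 with median centring and 0.09 with quantile normalization. In intensity, Vim read 26510 or more in SAMP8-CR and 23750 or less in SAMP8-AL. The 95% interval of Gfap there was -1.10 to 0.69, and that of Aldoc probe 1, with a difference of 0.25, was -0.43 to 0.93.
In R1CR-R1AL the marker differences ran from -0.17 for Vim (0.06 with median centring) to 0.52 for Gfap (adjusted p = 0.999 for each). Gfap there had a 95% interval of -0.37 to 1.42. In Gfap intensity each SAMR1-CR array exceeded the SAMR1-AL array of the same number, as held for Lcn2 and Serpina3n too. The 90th percentile of all intensities had the same order (1033, 653.6 and 578.9 against 1023, 584 and 500.6). On the normalized scale Gfap and Serpina3n kept that order. Lcn2 reversed it in replicates 2 (6.296 against 6.601) and 3 (6.335 against 6.651). No label says that the number pairs samples. Serpina3n had a difference of 0.47 (95% interval -0.05 to 0.99) and Aldoc probe 1 of 0.44 (-0.23 to 1.12).
On the normalized scale the CR and AL arrays overlapped in both strains for the 8 tested probes other than Cd44 probe 4, while 19.4% of all tested probes did not overlap in P8CR-P8AL and 3.9% in R1CR-R1AL. In intensity, Vim and Aldoc probe 2 were higher in SAMP8-CR than in SAMP8-AL without overlap. Their normalized differences were -0.32 and -0.08. By the 90th percentile of all intensities each SAMP8-CR array was brighter than the SAMP8-AL array of the same number. The values were 1013, 785.8 and 628.2 against 552.8, 737 and 615.8. With quantile normalization Aldoc probe 2 was again higher without overlap, as was Serpina3n in R1CR-R1AL. The shares of all probes on these other scales were not taken. Cd44 probe 4 passed the detection filter only through SAMP8-CR and SAMR1-AL, so that it had to read high there. Its bound was 1.04-fold higher in SAMP8-CR than in SAMP8-AL and 1.07-fold lower in SAMR1-CR than in SAMR1-AL. These bounds compare group means without the spread between arrays, and they are no calls (adjusted p = 0.818 and 0.999). The Z ratio cutoff alone passed 5 of the 9 probes in P8CR-P8AL and 5 in R1CR-R1AL, against 25% and 19.8% of all tested probes. Over both strains the serum differences of the 9 probes lay between -0.25 and 0.35 (lowest adjusted p = 0.97), and the strain by serum terms of the 8 probes other than Cd44 probe 4 between -0.72 and 0.01 (lowest adjusted p = 0.969). No probe of the array was called for either term, and 401 (3.67%) and 479 (4.38%) had an unadjusted p under 0.05.

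**Figure D5:**
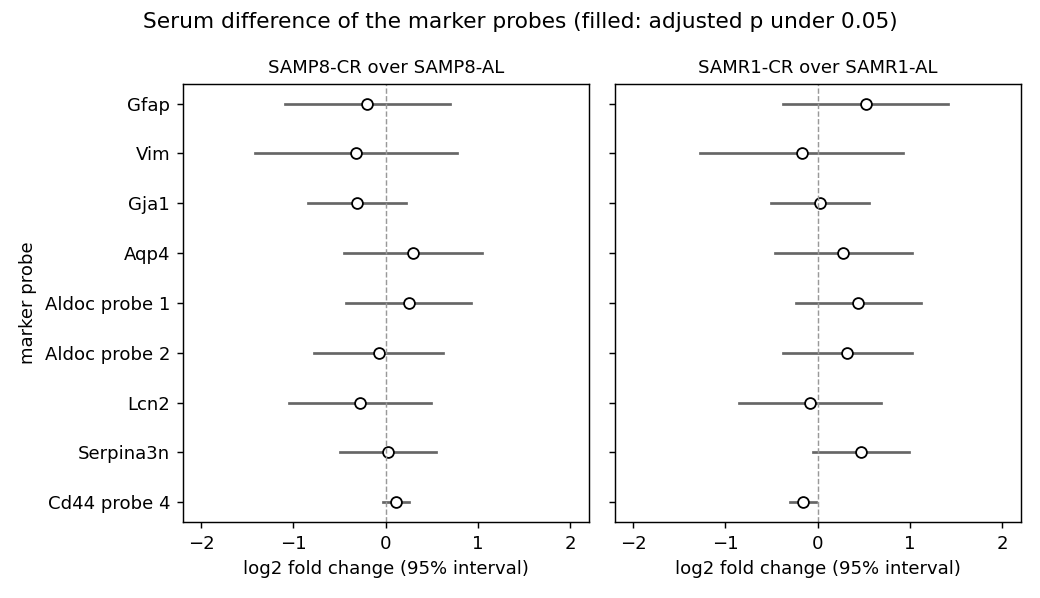
Log2 fold change with its 95% interval of the 9 marker probes for SAMP8-CR over SAMP8-AL and SAMR1-CR over SAMR1-AL (limma, 12 samples), filled where the adjusted p was under 0.05. No symbol is filled, and the estimates lay between -0.32 and 0.52.

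Other genes of the same roles were read from lists chosen with earlier results of these data known, and counts are for SAMP8 over SAMR1 over both sera, where the median of all tested probes was 0.04 and 15.6% of them were called. Of 24 tested astrocyte identity genes, 2 were higher and 1 lower (median 0.10). The bicarbonate cotransporter Slc4a4 rose by 1.30 (SE 0.14, adjusted p = 2.79e-05) and Glul, which makes glutamine from glutamate, by 0.78 (SE 0.18, adjusted p = 0.0099), while the neurotensin receptor Ntsr2 had -0.64 (adjusted p = 0.0371). Slc4a4 was also called in P8AL-R1AL (1.64, adjusted p = 0.000186) and in P8CR-R1CR (0.95, adjusted p = 0.0148). It was detected in 3 arrays of each group but SAMR1-AL, where 1 array detected it. The size in P8AL-R1AL is thus taken against a signal near background.
Lists of reactive genes held calls in both directions. Of 5 tested pan-reactive genes 2 were higher, the metalloreductase Steap4 (0.57, adjusted p = 0.00136) and ceruloplasmin, Cp (0.46, adjusted p = 0.0231), and 2 lower, the small heat shock protein gene Hspb1 (-1.90, adjusted p = 0.000213) and the metalloproteinase inhibitor Timp1 (-1.18, adjusted p = 0.0113). Of 7 genes named after neuroinflammatory astrocytes, the class I antigen gene H2-D1 was called higher (adjusted p = 0.00333). It was detected in no SAMR1 array and in 5 of the 6 SAMP8 arrays. That bounds the difference in means at 1.07-fold, without the spread between arrays. H2-D1 entered the test only through SAMP8-CR, where all 3 arrays detected it, so its direction is in part set by that filter. In the same list Srgn, a proteoglycan of secretory granules (-1.33, adjusted p = 0.000289), and Fkbp5, a steroid-responsive chaperone (-0.48, adjusted p = 0.0167), were lower. Of 9 genes named after ischaemic astrocytes 3 were lower, Cd14 (-2.16, adjusted p = 1.76e-06), Cd109 (-0.70, adjusted p = 0.00113) and B3gnt5 (-0.35, adjusted p = 0.0474), and none was higher (median -0.35).
Among partners of the markers, of 6 water channel and endfoot genes 2 were higher, dystroglycan, Dag1 (0.97, adjusted p = 0.000935), and dystrobrevin, Dtna (0.53, adjusted p = 0.0239), which belong to the complex that holds Aqp4 at the endfoot. Of 6 tested partners of Cd44 and hyaluronan 2 were higher, the membrane linkers Rdx (0.90, adjusted p = 0.0066) and Ezr (0.50, adjusted p = 0.0435). Of 7 S100 genes S100a6 (-0.85, adjusted p = 0.0202) and S100a8 (a myeloid alarmin, adjusted p = 0.00333) were lower. S100a8 was detected in all 6 SAMR1 arrays, in 2 of the 3 SAMP8-CR arrays and in no SAMP8-AL array. It therefore entered the test only through the SAMR1 groups, where it had to read high. The lists of intermediate filament partners (5 tested), gap junction genes (4) and aldolases and folate enzymes (6) held no call in either direction.
In the signalling arm upstream of Gfap, Lcn2 and Serpina3n, 14 genes were tested, 3 were higher and 1 lower. Stat3 rose by 0.77 (SE 0.16, adjusted p = 0.00537), its kinase Jak2 by 0.41 (adjusted p = 0.0183) and the shared cytokine receptor chain Il6st by 0.42 (adjusted p = 0.00791), and Socs3, the feedback inhibitor that STAT3 induces, had -0.75 (adjusted p = 0.00527). With a block for the array set only Socs3 of these was called (adjusted p = 0.0344). Il6st was detected in 3 arrays of each SAMP8 group and in 2 of each SAMR1 group. It thus entered the test only through the strain where it was higher.

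Markers of other cells moved with the strain as well. Of 14 tested microglia and macrophage genes 11 were lower in SAMP8 and none higher (median -0.94), among them the Fc receptor gene Fcgr3 (-2.01, adjusted p = 5.31e-05), the receptor gene Trem2 (-1.24, adjusted p = 0.000466), its adaptor Tyrobp (-1.14, adjusted p = 0.0018) and Cd14, which is also in the ischaemic list. Aif1, another defining microglia marker, named here after its value was seen, had 0.01 (adjusted p = 0.985). Their summed quantile-normalized intensity was 13110 to 19010 in SAMP8-CR and 24810 to 30730 in SAMR1-CR, and 10630 to 20420 in SAMP8-AL and 20020 to 36020 in SAMR1-AL. With a block for the array set 9 of the 14 were lower (median -1.39), and Itgam was detected in no array. Of 9 fibroblast and meningeal genes 3 were higher, Igf2, Col1a2 and Pdgfrb (median 0.48). With that block none of the 9 was called higher, 2 were called lower and the median was -0.07. Col1a2 was detected in all 3 arrays of SAMP8-CR alone, so it entered the test only through that group.
Of 5 oligodendrocyte lineage genes Olig2 (0.57, adjusted p = 0.00069) and Cnp (0.48, adjusted p = 0.0345) were higher, and Mog and Mag were detected in no array. Their summed intensity was 22110 to 33520 in SAMP8-CR and 14130 to 21480 in SAMR1-CR, and 29780 to 35390 in SAMP8-AL and 15440 to 21010 in SAMR1-AL. Of the other lists, 1 of 4 neuron genes was higher (Syt1), 1 of 3 ependymal and choroid plexus genes was lower (Ttr) and 0 of 2 endothelial genes were called. The part of these other cells in the marker differences was not tested. All 40 genes called in these lists kept their direction with quantile normalization, median centring, an array set block and the first array set alone. Of these, 39 kept their call with quantile normalization, 24 with median centring and 24 with the block. Sizes moved both ways with the block. Igf2 fell to 0.16 from 2.01 and Col1a2 to 0.16 from 0.72, while Timp1 went to -2.08 from -1.18. The first array set alone is nearly the same comparison as the block, as the second set holds only SAMP8.

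The genes whose profile over the 12 arrays lay nearest to a marker were found by the root mean square difference of centred log2 values, as a description over samples that share strain, serum and array set. For Gfap they were Sel1l3 (0.22), Pdk4 (0.26) and Glb1l2 (0.28), and for Aqp4 Ssbp3 (0.27), Ptn (0.30) and Tbl1x (0.32). Aldoc probe 1 lay nearest to Mfap4 (0.21), Wipi1 (0.23) and Rida (0.25), and Aldoc probe 2 to Pygb (0.15), Ntn4 (0.20) and Thra (0.20). Vim lay nearest to Mt1 (0.15), Cst3 (0.18) and Ckb (0.20). Among the markers other than Cd44, whose probe varied little near background, the 2 Aldoc probes were closest (0.37), followed by Gja1 and Serpina3n (0.43) and by Vim and Lcn2 (0.44).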

How the data were processed

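Total RNA of 12 cultures was hybridised to Illumina MouseRef-8 arrays of 24613 probes. The authors deposited for each sample the bead intensity of every probe, linear and without background correction, and a detection p-value. A second deposited table holds a Z score, the log10 intensity centred and scaled per array, which was checked against the intensities and agreed to within 5e-10. The scanner software version is not given in the sources used here.

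Log2 intensities were Z-normalized per array, as in the methods, and multiplied by the mean SD (1.42). Kept probes had a detection p under 0.05 in all 3 arrays of some group. All 4 groups were fitted in 1 limma model (version 3.58.1, R 4.3.3, lmFit and eBayes with a trend), and p-values were adjusted by Benjamini-Hochberg over the 10935 kept probes of 8068 genes. The comparisons were 4 between pairs of groups, then strain over both sera, serum over both strains and their interaction. Figures used Python 3.11.15 with matplotlib 3.10.9. The p-values measure the spread between 3 samples per group, whose small number limits precision. The platform annotation gives 1 gene for 20984 probes, several for 1 and none for 3628, and GRCm38.p6 holds the symbol of 20968.

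All probes of the 10 markers are reported. Of the 11 gene lists and 6 cell type lists, the called genes are named, at most 4 per list and comparison by smallest p, with the brightest kept probe per gene. Members and lists were chosen with earlier results of these data known. Samples with the same replicate number were checked for shared deviations: the 3 pairs of P8CR-R1CR had r of 0.366, 0.191 and 0.327 and those of P8CR-P8AL 0.383, 0.439 and 0.116, all above 0.1, which was not so for the other comparisons. In P8CR-P8AL replicates 2 and 3 also share the array set. Procedures were tested on simulated data.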

Additional observations from a re-analysis of the deposited data

Results flagged for a closer look

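Cd44 probe 4 had fitted serum differences of opposite sign in the strains, 0.11 for SAMP8-CR over SAMP8-AL and -0.16 for SAMR1-CR over SAMR1-AL, and on the normalized log2 scale, though not in intensity, the arrays of the 2 sera did not overlap in either strain. The fitted difference between them was 0.27 (SE 0.10, adjusted p = 0.965 from limma) and was no call. The probe was detected in all arrays of SAMP8-CR and SAMR1-AL and in none of SAMP8-AL and SAMR1-CR, so it passed the detection filter only through the groups where it was high, and the pattern is in part set by that filter. Only bounds are known, at least 1.04-fold higher in SAMP8-CR than in SAMP8-AL and at least 1.07-fold lower in SAMR1-CR than in SAMR1-AL.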

How the results depend on the processing

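Marker probes called numbered 1 in P8AL-R1AL, 0 in P8CR-R1CR and 4 for strain over both sera. With the replicate block they were 2 in P8AL-R1AL and 2 in P8CR-R1CR. In P8AL-R1AL they were 2 with quantile normalization, 2 with normexp background and quantile, 2 with no filter on dim probes, and 0 with median centring and 0 with the first array set alone. For strain they were 2 with median centring, 1 with a block for the array set and 0 in the first set. The Z ratio cutoff alone gave 4 in P8AL-R1AL, 8 in P8CR-R1CR, 5 in R1CR-R1AL and 5 in P8CR-P8AL. Leaving out single samples gave 0 to 2 in P8AL-R1AL, 0 to 2 in P8CR-R1CR and 1 to 4 for strain.

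Calls over all probes numbered 1057 in P8AL-R1AL, and 508 without replicate 1 of SAMP8-AL and SAMR1-AL, 367 with median centring, 621 with the block for the array set and 74 in the first set, and 431 to 1346 with single samples left out. In P8CR-R1CR they were 306, and 477 with the replicate block, 80 in the first set and 167 to 357 with single samples left out. For strain they were 1710, and 870 with the set block, 436 in the first set and 1222 to 1946 with single samples left out. The replicate pairing check gave r above 0.1 in 10 of 18 same-number pairs, and 8 of 12 samples correlated best with their own number.

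Some log2 differences that missed the threshold changed sign. With median centring, P8AL-R1AL gave Vim 0.022, Gja1 0.015 and Lcn2 0.003, P8CR-R1CR gave Vim 0.303, Gja1 0.017 and Lcn2 0.201, and R1CR-R1AL gave Vim 0.058 and Lcn2 0.123. It gave Gfap 0.038, Vim 0.34, Gja1 0.156, Lcn2 0.321 and Aldoc probe 2 0.536 in P8CR-P8AL, and Vim 0.163, Gja1 0.016 and Lcn2 0.102 for strain. Median centring moved the median of all probes to 0.223 in P8CR-R1CR (otherwise 0.038), 0.156 in P8CR-P8AL (0.01) and 0.162 for strain (0.037). Quantile normalization, with or without normexp, gave Vim 0.12 in P8CR-R1CR, Lcn2 0.089 in R1CR-R1AL, Vim 0.087 in P8CR-P8AL and Vim 0.047 for strain, and Aldoc probe 2 in P8CR-P8AL was 0.305 without and 0.307 with normexp. The array set block gave Lcn2 0.288 in P8AL-R1AL, 0.094 in P8CR-R1CR and 0.191 for strain. The first set alone gave Vim 0.206, Lcn2 0.4 and Serpina3n 0.06 in P8AL-R1AL, Serpina3n -0.248 in P8CR-P8AL and Lcn2 0.187 for strain. Without replicate 1 of SAMP8-AL and SAMR1-AL, P8CR-P8AL gave Lcn2 0.059 and Aldoc probe 2 0.175, and the strain difference of Lcn2 was called (-0.71, adjusted p = 0.0286).

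With single samples left out, signs changed within these ranges. In P8AL-R1AL they were -0.199 to 0.596 for Gfap, -0.837 to 0.016 for Vim and -0.615 to 0.019 for Lcn2. In R1CR-R1AL they were -0.682 to 0.246 for Vim, -0.165 to 0.567 for Aqp4, -0.125 to 0.265 for Gja1 and -0.435 to 0.108 for Lcn2. In P8CR-P8AL they were -0.557 to 0.059 for Lcn2, -0.098 to 0.263 for Serpina3n and -0.281 to 0.176 for Aldoc probe 2, and for strain -0.472 to 0.021 for Gfap. Of the single-probe values under other settings, 424 kept direction and side of the threshold, 36 reversed, 7 gained and 14 lost a call. The cause was not tested. These settings include the deposited Z scores, the replicate block and the changed filters on dim probes, which leave the log2 difference unchanged. Signal limits Cd44 and S100b, which were near background.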
